A study of Mus musculus with 2 samples.

Results

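The 74 genes described here encode 5 classes of homeodomain transcription factor, and were chosen by gene symbol: 38 Hox genes, 10 genes of the TALE class (Meis, Pbx, Pknox and Tgif), 8 LIM homeobox genes of the Lhx series, 13 POU genes and 5 Six-family genes. They were read out of the 23284 gene symbols counted in 2 RNA-seq libraries, replicates 1 and 2 of the only group. Per the labels, whole pancreata were dissected from NGN3-EGFP mouse embryos of a mixed C57BL6 strain at e15.5, and the GFP-positive cells were sorted from them. The series' title calls these cells pancreatic endocrine progenitors. The labels do not say how many embryos or litters went into a library, nor how the EGFP reporter was placed at or near the gene for NGN3. With 1 group there was no comparison between conditions, and the spread between the libraries may be technical.

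Homeodomain proteins bind short DNA sequences, and many bind in pairs. Hox genes lie in 4 clusters, HoxA to HoxD, and are numbered by their place in the cluster. The low numbers are used towards the head of the embryo and the high numbers towards the tail. TALE proteins, named for an extra loop in the homeodomain, include the partners with which Hox proteins and the related pancreatic factor Pdx1 bind DNA. LIM homeodomain proteins work through the adaptor Ldb1, Six-family proteins through the Eya coactivators, and POU proteins carry a second DNA-binding domain beside the homeodomain.

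Replicate 1 held 12495143 counted reads and replicate 2 held 12043734. A gene was called detected at 1 CPM (counts-per-million) or more in each library. A count of 0 allows up to 3 counts, or 0.241 and 0.248 CPM in replicates 1 and 2, counting error only. The endocrine label fitted its markers: 7 of 7 were detected, with a summed level of 9292 and 9442 CPM in replicates 1 and 2. Among them Neurog3, the gene that encodes NGN3, was at 736 and 551 CPM. Markers of other cells were also present. All 5 ductal markers were detected (summed level 587 and 559 CPM), 5 of 6 acinar (1714 and 1288 CPM), 5 of 12 mesenchymal (426 and 143 CPM), 3 of 6 neural crest (251 and 115 CPM) and 2 of 5 immune markers (56.5 and 11.7 CPM). No endothelial marker of 6 (15.8 and 5.46 CPM) and no erythroid marker of 4 (0.241 and 2.81 CPM) was detected. Since the cells were pooled, fewer cells of a type and less RNA per cell cannot be told apart.

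Most reads of these homeobox genes came from TALE genes, and almost none came from Hox genes. The 74 genes took 0.101% of all reads in replicate 1 and 0.115% in replicate 2. The TALE genes made up 65.0% of these reads in replicate 1 and 81.3% in replicate 2, and the Hox genes 0.435% and 0.130%. The POU genes made up 19.8% and 9.12%, the Six-family genes 9.18% and 6.89%, and the LIM genes 5.63% and 2.53%. Of the 74 genes 13 were detected, or 17.6%, against 45.7% of all genes in the files. By class these were 8 of 10 TALE, 2 of 13 POU, 2 of 5 Six-family, 1 of 8 LIM and 0 of 38 Hox genes. No read was counted in either library for 42 of the 74 genes, or 56.8%, against 34.9% of all genes. The median level over the 74 genes was 0 CPM in each library, against 1.13 and 1.57 CPM in replicates 1 and 2 over all genes.

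To show what sequence stands before genes at these different levels, the 250 bases upstream of the start are printed for the most abundant gene of each class among the 51 of 74 genes that have a promoter in the RefSeq table (build GRCm38.p6, the start farthest upstream where a gene has several). They read 5′ to 3′ on the gene's own strand, and capitals mark CpG dinucleotides.
Hoxa3 (chr6:52213068-52213317, minus strand): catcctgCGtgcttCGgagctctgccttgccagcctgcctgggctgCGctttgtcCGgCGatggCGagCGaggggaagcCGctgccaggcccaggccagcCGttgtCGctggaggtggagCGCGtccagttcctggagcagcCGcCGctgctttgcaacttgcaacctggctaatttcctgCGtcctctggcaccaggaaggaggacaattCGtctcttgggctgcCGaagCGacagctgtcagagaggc
Meis2 (chr2:116064620-116064869, minus strand): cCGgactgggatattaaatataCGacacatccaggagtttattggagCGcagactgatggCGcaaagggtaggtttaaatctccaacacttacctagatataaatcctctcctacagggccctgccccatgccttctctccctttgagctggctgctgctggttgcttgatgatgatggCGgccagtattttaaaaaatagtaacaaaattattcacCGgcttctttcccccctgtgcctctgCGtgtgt
Lhx1 (chr11:84525535-84525784, minus strand): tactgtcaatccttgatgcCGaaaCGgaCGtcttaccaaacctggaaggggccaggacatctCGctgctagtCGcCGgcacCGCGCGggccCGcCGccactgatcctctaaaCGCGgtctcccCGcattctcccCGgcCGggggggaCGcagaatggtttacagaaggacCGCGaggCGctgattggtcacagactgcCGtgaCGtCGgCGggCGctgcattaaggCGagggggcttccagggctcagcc
Pou2f1 (chr1:166002635-166002884, minus strand): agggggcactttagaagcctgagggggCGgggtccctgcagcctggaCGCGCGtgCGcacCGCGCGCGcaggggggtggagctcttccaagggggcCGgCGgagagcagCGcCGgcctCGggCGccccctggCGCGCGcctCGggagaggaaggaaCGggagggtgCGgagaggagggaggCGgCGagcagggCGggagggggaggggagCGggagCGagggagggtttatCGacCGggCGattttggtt
Six5 (chr7:19094294-19094543, plus strand): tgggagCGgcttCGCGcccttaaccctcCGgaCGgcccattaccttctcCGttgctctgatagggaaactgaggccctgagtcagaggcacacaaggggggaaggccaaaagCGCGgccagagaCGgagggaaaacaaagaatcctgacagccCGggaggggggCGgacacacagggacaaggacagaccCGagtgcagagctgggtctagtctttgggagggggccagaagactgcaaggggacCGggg
The Meis2 window held 7 CpG dinucleotides, close to the median of 6 over the 27025 genes with such a window, at a GC content of 47.6%. The Hoxa3 window held 18, more than 78.4% of those genes, and the Six5 window 13, more than 68.2%. The windows of Lhx1 and Pou2f1 held 26 and 29, more than 90.7% and 93.6%. The window of Hoxa3, which had reads in 1 library, held more CpG than that of Meis2, the most abundant of the 74. Which start of a gene these cells used is not given by the counts, and a link between CpG number and level was not tested. The letters TGACAG, the core bound by Meis, Pknox and Tgif proteins, were searched on both strands. They were found 1 time each before Hoxa3, Lhx1 and Six5 and not before Meis2 or Pou2f1, and 15.9% of all windows held them. A comparison of promoters over all 74 genes would be void, since 68.9% of them, and 57.9% of the Hox genes, had a window.

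Transcripts of the Hox genes, which set position along the body axis, were close to absent. The 38 Hox genes together had 55 reads in replicate 1 and 18 reads in replicate 2. This was a summed level of 4.42 CPM (exact Clopper-Pearson 95% interval 3.33 to 5.75) and 1.49 CPM (0.882 to 2.35). No Hox gene had a read in both libraries, 10 had a read in 1 of them, and 28, or 73.7%, had none. At most 3 reads in each library were counted for 35 of the 38 genes. By comparison, Meis2 alone had 5036 reads in replicate 1 and 8738 in replicate 2.

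**Figure D1:**
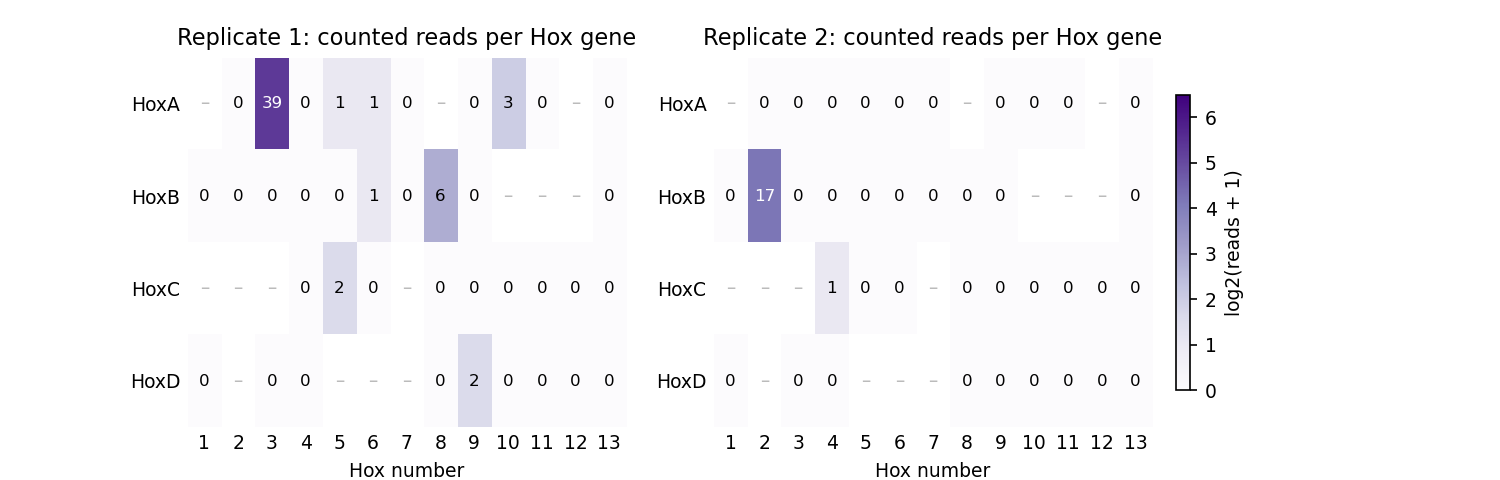
Counted reads of each Hox gene in replicate 1 (left) and replicate 2 (right), with the 4 clusters as rows and the Hox number on the horizontal axis; the printed number is the read count, the shade is log2(reads + 1), and a dash marks a place for which no gene is shown. The highest counts were 39 reads for Hoxa3 in replicate 1 and 17 reads for Hoxb2 in replicate 2, and each was 0 in the other library.

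By cluster, HoxA had 44 reads in replicate 1 and 0 in replicate 2, HoxB 7 and 17, HoxC 2 and 1, and HoxD 2 and 0. HoxA thus held 80% of the Hox reads in replicate 1 and none in replicate 2, and HoxB 12.7% and 94.4%. The cluster with most Hox reads differed between the libraries, and in each case a single gene supplied most of them. Hoxa3, which patterns the pharyngeal region, had 39 reads in replicate 1 (3.13 CPM, 2.23 to 4.29) and 0 in replicate 2. Its observed level in replicate 1 was 12.6-fold the limit of 3 counts in replicate 2. Hoxb2, a hindbrain gene, had 0 reads in replicate 1 and 17 in replicate 2 (1.41 CPM, 0.819 to 2.25). That observed level was 5.83-fold the limit of 3 counts in replicate 1. These genes, like the scarce ones of the other classes below 5 CPM, were singled out after their values were seen.

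The counts of these Hox genes also depend on how overlapping transcripts were handled, which is not given in the sources used here. In GENCODE M21, 58.5% of the exon bases of Hoxb2 lie opposite the antisense RNA Hoxb3os, and 19.4% of those of Hoxa3 lie opposite Hoxaas2. Neither antisense RNA was analysed here. Reads of a gene and of its antisense partner cannot be told apart without strand.

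The other Hox genes with reads were Hoxb8 with 6 reads, Hoxa10 with 3, Hoxc5 and Hoxd9 with 2 each and Hoxa5, Hoxa6 and Hoxb6 with 1 each, all in replicate 1, and Hoxc4 with 1 in replicate 2. By number, 11 genes numbered 1 to 4 had 39 reads in replicate 1 and 18 in replicate 2. Another 11 genes, numbered 5 to 8, had 11 reads and 0, and the 16 genes numbered 9 to 13 had 5 and 0. The low-numbered Hox genes therefore held most of the few reads in each library, but not through the same gene. In replicate 1 all 39 reads came from Hoxa3, and in replicate 2 Hoxb2 had 17 of the 18. No low-numbered gene had reads in both libraries.

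No read in either library was counted for Hoxa2, Hoxa4, Hoxa7, Hoxa9, Hoxa11 and Hoxa13 of the HoxA cluster. In HoxB the same held for Hoxb1, Hoxb3, Hoxb4, Hoxb5, Hoxb7, Hoxb9 and Hoxb13. In HoxC it held for Hoxc6, Hoxc8, Hoxc9, Hoxc10, Hoxc11, Hoxc12 and Hoxc13, and in HoxD for Hoxd1, Hoxd3, Hoxd4, Hoxd8, Hoxd10, Hoxd11, Hoxd12 and Hoxd13. The 8 other rows of the files that the RefSeq table places inside the clusters, the microRNA hairpins Mir10a, Mir10b, Mir196a-1, Mir196a-2, Mir196b and Mir615 and the noncoding RNAs Mira and Gm53, had no read either. Hairpins are short, and whether these libraries could hold them is not given in the sources used here.

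Most genes beyond the edges of the clusters were detected. Of the 5 nearest protein-coding genes with a row in the files on each side of the 4 clusters, 28 of 40 were detected, against 0 of 38 Hox genes inside. Of all genes in the files, which include noncoding ones, 45.7% were detected. The median neighbour stood at 33.5 and 20.6 CPM in replicates 1 and 2. By cluster 8 of 10 neighbours were detected at HoxA, 5 of 10 at HoxB, 7 of 10 at HoxC and 8 of 10 at HoxD. Next to the low-numbered end of HoxA, the adaptor gene Skap2 was at 71.9 and 13.5 CPM in replicates 1 and 2. Next to the low-numbered end of HoxD, Mtx2, of the mitochondrial outer membrane, was at 34.8 and 51.6 CPM. Among the neighbours are copies of the same gene families, which were duplicated along with the clusters: the heterochromatin proteins Cbx3 (5.23 and 10.1 CPM), Cbx1 (85.9 and 31.6 CPM) and Cbx5 (323 and 436 CPM) lie beside HoxA, HoxB and HoxC. The homeobox genes at the high-numbered ends, Evx1 beside HoxA and Evx2 beside HoxD, had no read, like the Hox genes.

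**Figure D2:**
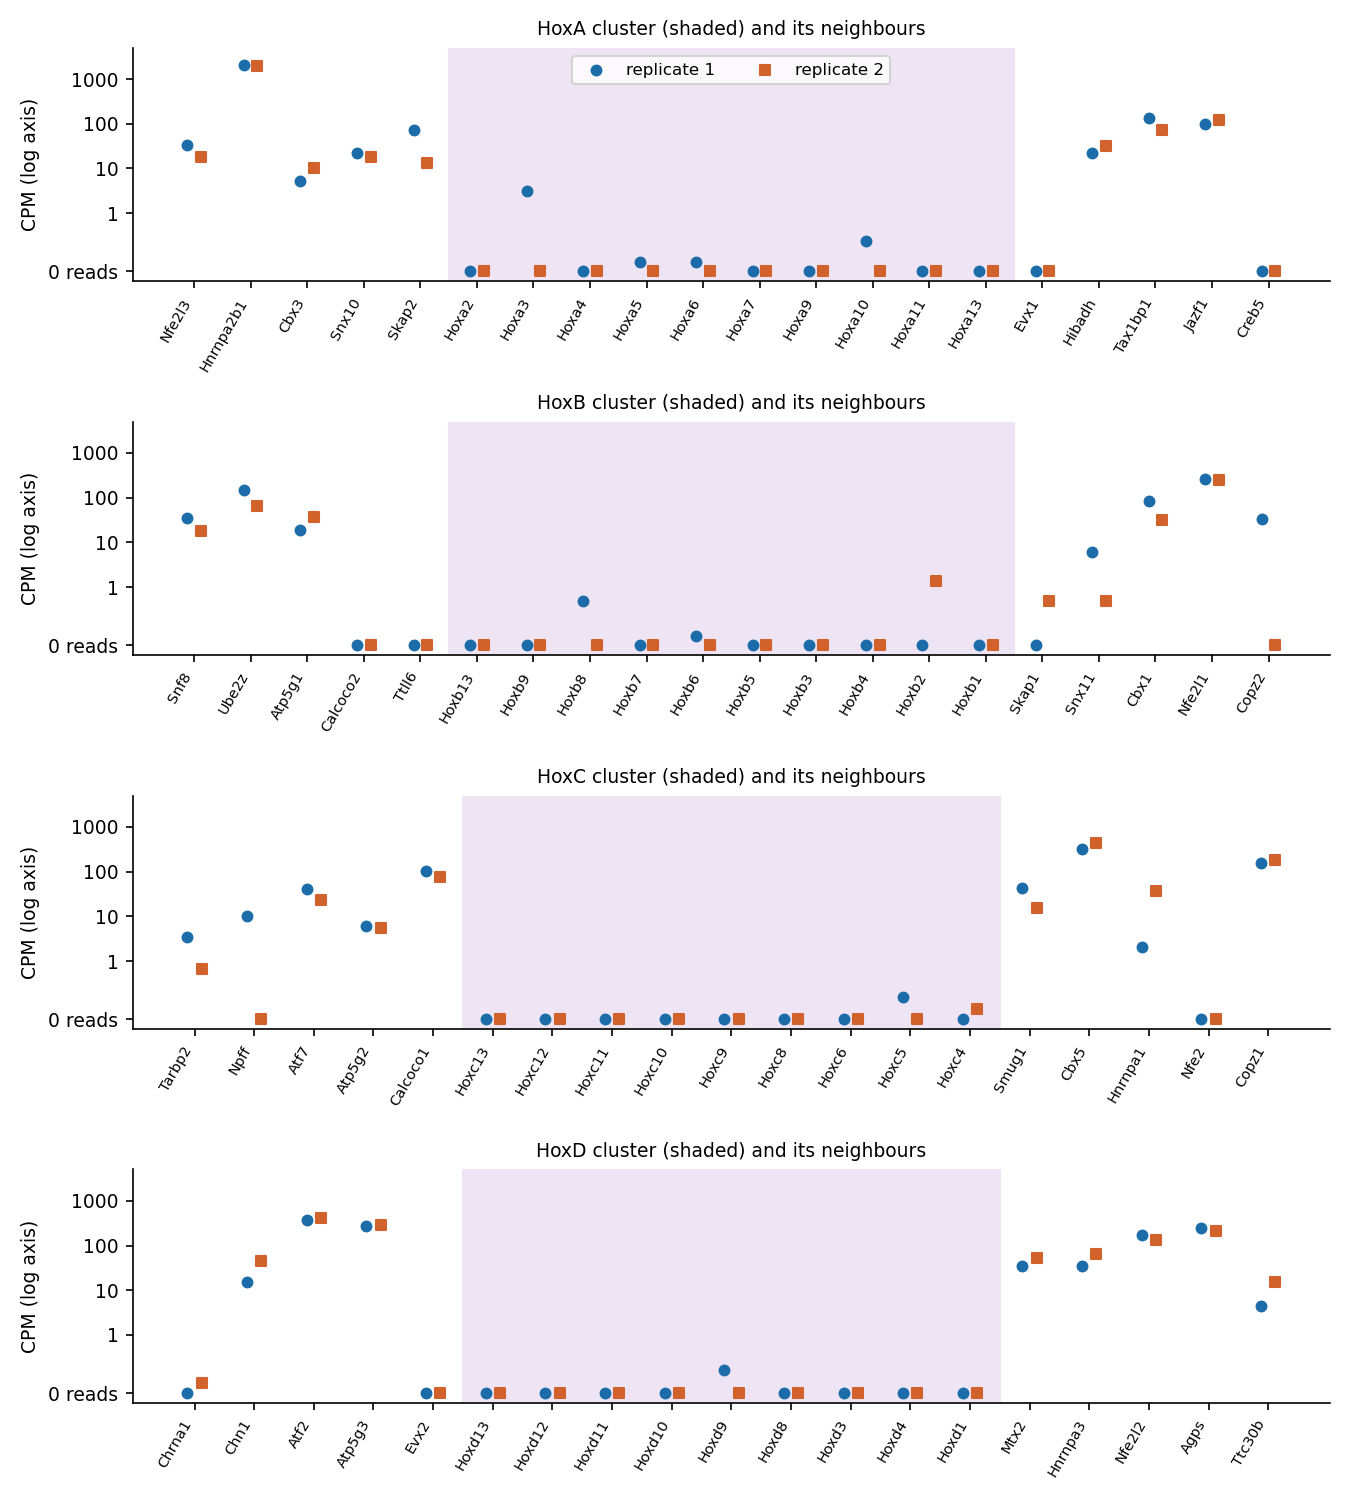
CPM on a log axis for the Hox genes of each cluster (shaded) and the 5 nearest protein-coding genes in the files on each side, in the order of their annotated starts, with replicate 1 as circles and replicate 2 as squares; a library with no read is drawn at the bottom. Inside the clusters nearly all points lie at 0 reads and none is above that of Hoxa3 in replicate 1, while 28 of the 40 neighbours reached 1 CPM in both libraries.

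The 12 mesenchymal markers summed to 426 and 143 CPM in replicates 1 and 2, and the Hox genes to 4.42 and 1.49 CPM. Without Hoxa3, the other 37 Hox genes had 16 and 18 reads, or 1.29 and 1.49 CPM, so the higher Hox sum in replicate 1 rested on that gene. Of the mesenchymal markers Twist1 and Nkx2-5 had no read, Nkx3-2 had 58 reads in replicate 1 and 0 in replicate 2, and Barx1 had 0 and 58. The part of mesenchymal cells in the Hox reads was not tested.

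The TALE genes, whose proteins include the DNA-binding partners of Hox proteins and of Pdx1, were the abundant class. Meis2 was at 405 and 722 CPM in replicates 1 and 2, a mean of 564 ± 225 CPM (SD, n = 2). It made up 39.9% of the reads of the 74 genes in replicate 1 and 63.3% in replicate 2. Its level was thus the higher in replicate 2.

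Levels of different genes can be compared only per length, so CPM was divided by kb of exon, taken from the basic transcript set of GENCODE M21. On this scale Meis2 was at 93.1 CPM per kb in replicate 1 and 166 in replicate 2. Its mean ranked 303 among 22825 genes with an exon length. With the full transcript set, which lengthens the exons of Meis2 more than those of most genes described here, it was at 33.6 and 59.98 CPM per kb. With the basic set the next of the detected genes described here was Meis3, and the ranges of these genes over the libraries did not overlap.

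The other Meis genes were far below Meis2 per kb of exon, in both libraries. Meis3 was at 11.2 and 22.4 CPM per kb and Meis1 at 2.39 and 3.89 CPM per kb in replicates 1 and 2. Meis2 was above Meis3 by 8.29-fold and 7.42-fold and above Meis1 by 38.9-fold and 42.8-fold. With the full transcript set it was above Meis3 by 5.03-fold and 4.50-fold and above Meis1 by 19.6-fold and 21.5-fold. The order Meis2, Meis3, Meis1 was thus the same in both libraries. In CPM, Meis3 was at 21.2 and 42.3 and Meis1 at 18.1 and 29.3.

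Pbx proteins pair with Hox, Meis and Pknox proteins on DNA. Pbx2 was at 64.3 and 26.5 CPM in replicates 1 and 2. Pbx3 was at 25.6 and 42.4 CPM. Per kb of exon Pbx2, at 19.5 and 8.05 CPM per kb, stood above Pbx3, at 8.96 and 14.9, in replicate 1 and below it in replicate 2. With the full transcript set Pbx2 was above Pbx3 in both, by 4.22-fold and 1.05-fold. Pbx4 had 2 reads in replicate 1 (0.161 CPM, exact interval 0.0195 to 0.581) and 47 in replicate 2 (3.89 CPM, 2.85 to 5.17).

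Pknox1, also called Prep1, a Meis-like partner of Pbx proteins, was at 88.3 and 33.9 CPM in replicates 1 and 2. Its relative Pknox2 had 28 reads in replicate 1 and 4 in replicate 2, or 2.25 and 0.331 CPM. The Tgif genes encode repressors that limit TGF-beta signalling. Tgif1 was at 20.2 and 17.9 CPM and Tgif2 at 15.03 and 9.01 CPM. Tgif2 is uncertain, since 74.9% of its exon bases lie opposite 5430405H02Rik, which had 21 reads in replicate 1 and 125 in replicate 2.

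Of 9 other TALE-related genes, from a list of Irx genes, Mkx, Tgif2lx1 and the Pbx-binding protein gene Pbxip1, 3 were detected and 5 had no read. Pbxip1 was at 139 and 135 CPM. The Iroquois gene Irx2 was at 72.2 and 115 CPM and Irx1, named here after its values were seen, at 24.5 and 47.6 CPM, while Irx3, Irx4, Irx5 and Irx6 had no read.

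Only Lhx1 of the 8 Lhx genes was detected in both libraries. Lhx1, a factor of the early embryo and of the kidney, was at 57.1 and 23.6 CPM in replicates 1 and 2. Per kb of exon it was at 14.7 and 6.08 CPM per kb. Isl1, a LIM homeobox gene of islet cells that carries another family name, was 14.02-fold above it per kb in replicate 1 and 32.8-fold in replicate 2, or 9.33-fold and 21.8-fold with the full transcript set. The adaptor gene Ldb1, at 165 and 109 CPM, was 2.61-fold and 4.16-fold above Lhx1 per kb, and Ssbp3, which encodes a partner of Ldb1, was at 175 and 114 CPM. Of 13 LIM partners and relatives 8 were detected.

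Lhx2, which acts in forebrain, eye and liver mesenchyme, had 0 reads in replicate 1 and 62 reads in replicate 2, or 5.13 CPM (exact interval 3.93 to 6.57). This observed level was 21.3-fold the limit of 3 counts in replicate 1. Lhx9 had 1 read in each library. Lhx3, Lhx4, Lhx5, Lhx6 and Lhx8, which are genes of pituitary, motor neurons and forebrain, had no read.

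The Six-family genes detected were Six4 and Six5. Six4, a factor of muscle and sensory organs, was at 60.7 and 18.2 CPM in replicates 1 and 2. Six5 was at 32.6 and 50.8 CPM. Six5 was above Six4 per kb of exon in both libraries, by 1.94-fold and 10.1-fold, and they differed in opposite directions between the libraries. With the longest single transcript as the length these ratios were 1.22-fold and 6.33-fold. Six2, known for nephron progenitors, had 0 reads in replicate 1 and 117 in replicate 2, or 9.67 CPM (exact interval 7.999 to 11.6). This observed level was 40.1-fold the limit of 3 counts in replicate 1. Six3 and Six6 had no read.

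Of the 6 Eya and Dach genes, whose products work with Six-family proteins, 4 were detected and Eya4 had no read. Eya3 was at 91.5 and 97.6 CPM in replicates 1 and 2. Eya1, chosen after its values were seen, had 13 and 232 reads, or 1.05 and 19.2 CPM, and like Six2 it was the higher in replicate 2.

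Among the 13 POU genes, 2 were detected. Pou2f1, or Oct1, a factor of many cell types, was at 163 and 64.8 CPM in replicates 1 and 2. Pou6f1 was at 38.3 and 35.3 CPM. The order of these genes per kb of exon was not the same in the libraries, since Pou2f1 was 2.02-fold above Pou6f1 in replicate 1 and Pou6f1 was 1.15-fold above Pou2f1 in replicate 2. Of the exon bases of Pou2f1 22.7% lie opposite Cd247, a T cell gene, which had no read.

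Pou3f1, a factor of Schwann cells and skin, had 0 reads in replicate 1 and 42 in replicate 2, or 3.47 CPM (exact interval 2.50 to 4.69). Pou2f2, Pou3f2 and Pou3f3 had between 0 and 3 reads in each library. Pou1f1, Pou2f3, Pou4f1, Pou4f2, Pou4f3, Pou5f1 (the pluripotency factor Oct4) and Pou5f2 had no read.

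**Figure D3:**
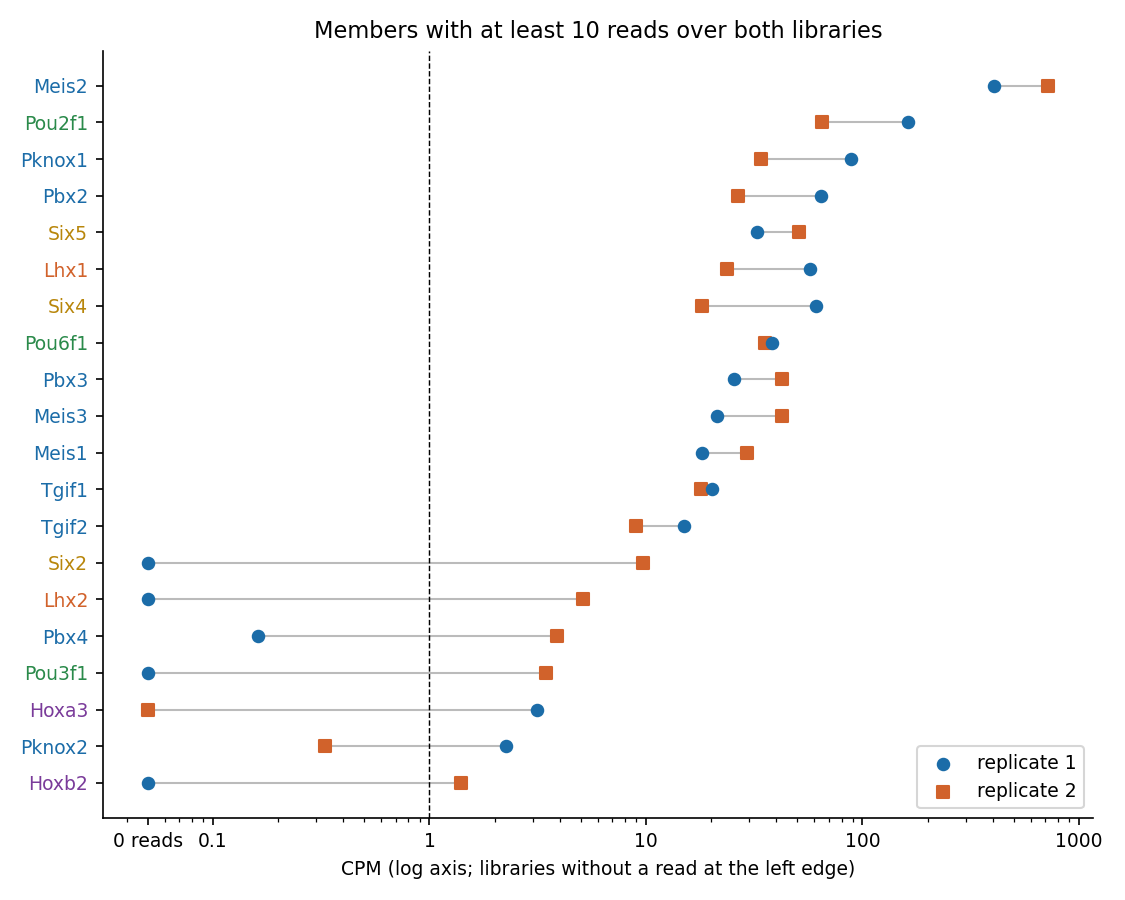
CPM on a log axis of the 20 genes whose reads over both libraries came to 10 or more, with replicate 1 as circles and replicate 2 as squares, names coloured by class (TALE blue, POU green, LIM orange, Six-family gold, Hox purple) and a dashed line at 1 CPM. The 13 detected genes lie to the right of the line in both libraries, and the 7 others cross it, with 5 of them at 0 reads in 1 library.

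Meis2 was set beside other homeobox genes of endocrine cells. Of 14 such genes, from a list of factors known in islet development, 11 were detected. Those with the highest CPM were Prox1 at 867 and 781 CPM in replicates 1 and 2, Nkx2-2 at 791 and 591, Pax6 at 581 and 629, Isl1 at 518 and 501 and Pax4 at 152 and 211 CPM. Per kb of exon Nkx2-2 was above Meis2 by 3.37-fold and 1.41-fold in replicates 1 and 2, and Isl1 by 2.21-fold and 1.199-fold. Meis2 was above Pdx1 per kb in both libraries, by 1.23-fold and 2.65-fold. With the full transcript set the direction turned, and Meis2 stood at 0.443 and 0.957 times Pdx1, while Nkx2-2 was above Meis2 by 8.19-fold and 3.43-fold and Isl1 by 3.89-fold and 2.11-fold. Of the 6 ParaHox genes, the sister group of the Hox genes that includes Pdx1, only Pdx1 was detected, at 164 and 135 CPM.

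The 13 detected genes were ordered by CPM per kb of exon. Between neighbours in this order the ranges of the libraries overlapped in 9 of 12 cases. They did not overlap between Meis2 and Meis3, Tgif1 and Pou6f1, and Pou6f1 and Tgif2. With the full transcript set or the longest single transcript, only Meis2 was separated from the gene below it. With the full set Pou6f1 was above Tgif1, by 1.54-fold and 1.59-fold. From Meis3 down to Tgif1, 8 genes with means from 16.8 to 8.26 CPM per kb, the ranges of neighbours overlapped. With the basic set, Meis3 stood above Six5, Pbx2 above Pknox1 and Lhx1 above Pou2f1 in each library. The other neighbours among these 8 genes changed order between the libraries. With the full set Meis3 stood below Six5 in each library.

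**Figure D4:**
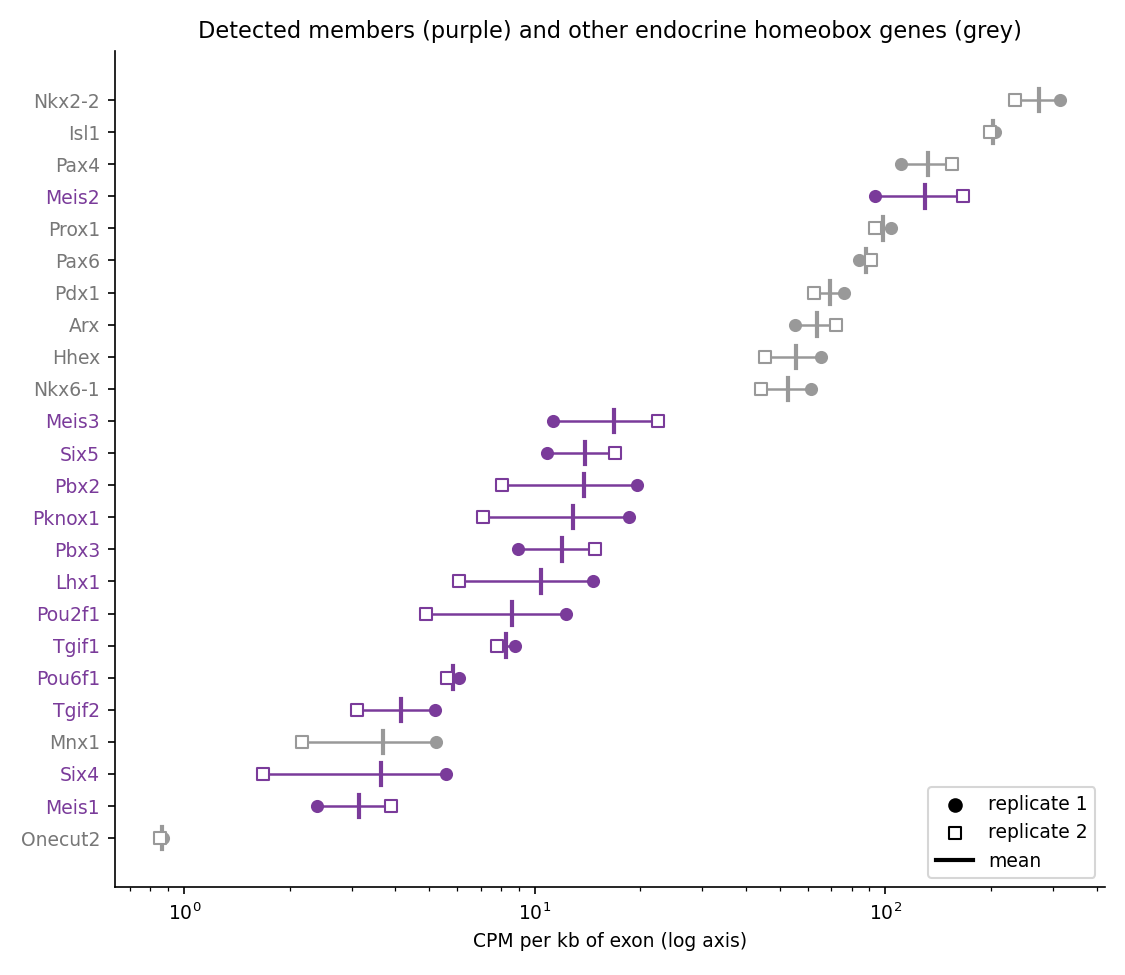
CPM per kb of exon on a log axis for the 13 detected genes (purple) and the 11 detected genes of the list of other endocrine homeobox genes (grey), with replicate 1 as filled circles, replicate 2 as open squares and the mean as a vertical bar. With these basic-set lengths Meis2 (93.1 and 166) lies between Pax4 and Prox1 by its mean, and the other purple genes lie below Nkx6-1.

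Most of the 20 genes with at least 10 reads differed between the libraries beyond counting error, as most genes did. By an exact binomial test, two-sided and with the scaled library sizes as the expected split, and with Benjamini-Hochberg adjustment over 13416 genes, 18 of 20 differed at 0.05, or 90%, against 85.8% of all genes tested. The test compares these libraries, not conditions. Of the 18 genes 8 were higher in replicate 1 and 10 in replicate 2, where the shares over all genes tested were 41.7% and 44.1%. Tgif1 and Pou6f1 did not pass, with adjusted p = 0.23 and 0.25 and 1.12-fold and 1.08-fold between the libraries.

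The size of the difference set the detected genes apart from each other. The Meis genes were all higher in replicate 2, Meis1 by 1.62-fold, Meis2 by 1.78-fold and Meis3 by 1.99-fold, with adjusted p-values of 1.9e-08, 5.4e-242 and 2.3e-20 by the exact binomial test. Pbx3 and Six5 were also higher there, by 1.66-fold and 1.56-fold. Toward replicate 1, Pbx2 differed by 2.42-fold, Lhx1 by 2.41-fold, Pou2f1 by 2.51-fold, Pknox1 by 2.60-fold and Six4 by 3.34-fold, and Tgif2 by 1.67-fold.

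Over 2-fold differences were called for 12 of the 20 genes, or 60%, against 48.2% of all genes tested. By level, among genes with a mean from 1 to 10 CPM, 6 of 6 differed over 2-fold, against 75.2% of all genes tested at that level. From 10 to 100 CPM 4 of 11 did, against 43.1%, and from 100 to 1000 CPM 1 of 2 did, against 12.2%. The share thus fell from the lowest to the middle level, as it did for all genes, and the 2 genes at the highest level, Meis2 and Pou2f1, are too few for a share.

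At least 10 reads in 1 library with none in the other were found for Hoxa3, Hoxb2, Lhx2, Pou3f1 and Six2. Of 20 genes with at least 10 reads in a library, these 5 make 25%, against 8.99% of all such genes. All but Hoxa3 had their reads in replicate 2. The shares were not compared at matched level.

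**Figure D5:**
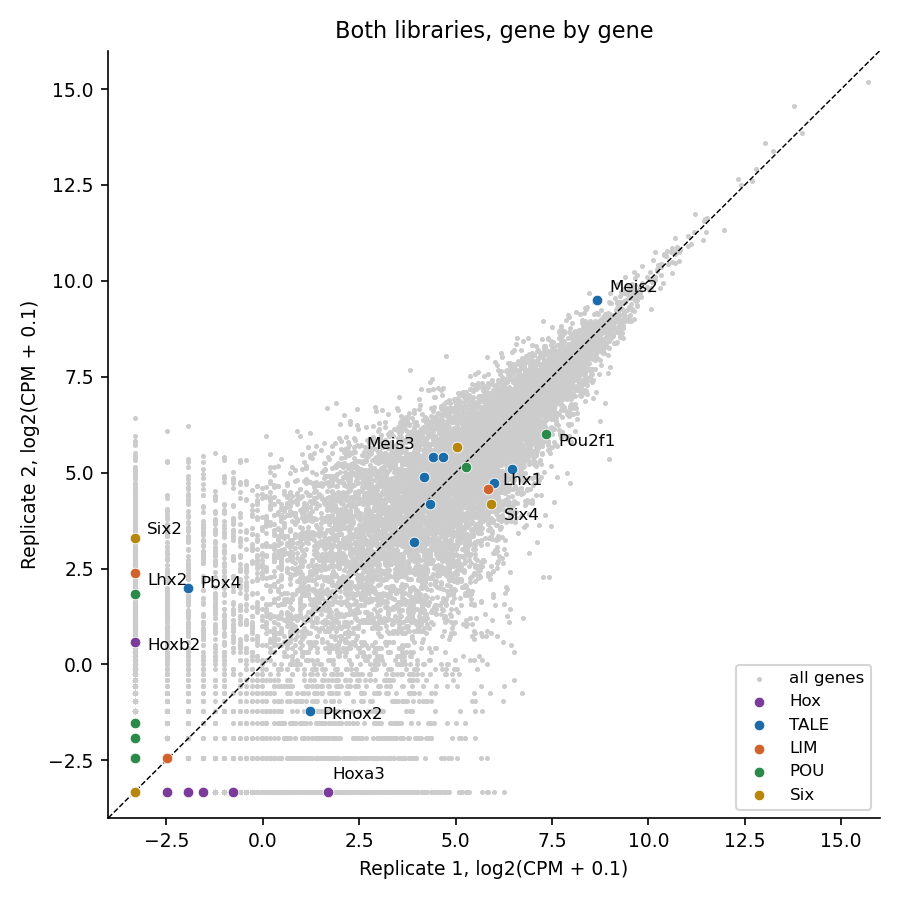
Log2(CPM + 0.1) in replicate 1 (horizontal) and replicate 2 (vertical) for all genes (grey) and the 74 genes coloured by class, with the line of equal level dashed. Meis2 lies in the narrow upper part of the cloud, Lhx1, Six4 and Pou2f1 below the line, and Six2, Lhx2, Hoxb2 and Hoxa3 on the edges where 1 library had no read.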

How the data were processed

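The authors deposited 1 file per sample of raw read counts per gene symbol. Per the submitters' processing notes the tools were TopHat2 2.0.4, Cufflinks 2.0.2, cutadapt, FastQC and DESeq, and the build was mm9; no roles or order are recorded. Not given in the sources used here are the counting program, gene annotation, strand setting and treatment of reads with several matches. Counts were scaled to CPM with TMM factors (edgeR 4.0.16, R 4.3.3). Intervals are exact Clopper-Pearson intervals at 95% and, like limits, cover counting error only, as the reads carry no molecular identifiers and may repeat a molecule. Exon lengths and overlaps came from the GENCODE M21 basic set (GRCm38), which may differ from the authors' gene models, so no coordinates of the files are given. The RefSeq table gave neighbours and promoters. The binomial test (SciPy 1.17.1) ran on genes whose reads over both libraries came to 10 or more and was tested on simulated data. The simulated counts held counting error only, so this check does not cover other spread between libraries. Fold values for genes at 0 reads set the observed level in the other library against 3 counts in that library. They leave out the counting error of the observed level, so they are not lower bounds.

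Members were chosen by symbol, and members and lists were chosen with earlier results of these data known. Values in both libraries are given for members detected in both or at 5 CPM or more in 1 library; list genes are named from a mean of 50 CPM, up to 5 per list. 5 genes that match these symbols, and 2 genes of the lists, are not reported here and are in no count of members. Alternatives were plain totals, DESeq2 1.42.0 size factors, totals without the 10 most abundant genes, other limits, filters and exon lengths, and leaving out each replicate.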

Additional observations from a re-analysis of the deposited data

How the results depend on the processing

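The number of members detected was 13 under the other scalings and at limits of 0.5 and 5 CPM, 16 with any read in both libraries, 18 without replicate 1 and 15 without replicate 2. The number differing between the libraries was 18 under the other scalings and with no filter. It was 12 with at least 100 reads, where fewer members were tested. It was also 12 when over 2-fold was required as well, since that adds a condition. Repeats under these scalings and filters were made for the 15 tested members detected or at 5 CPM or more in 1 library. All 74 repeats kept their direction and their side of the threshold. The tested members Hoxa3, Hoxb2, Pbx4, Pknox2 and Pou3f1 were not repeated gene by gene. The mean level of Meis2 was 46.8 CPM per kb with the full transcript set (130 with the basic set), because the exon length changes. With reads taken per kb of exon, the mean Hox share of the members was 0.565% (0.283% by CPM) and the POU share 6.23% (14.5%), since exon lengths differ between the classes. No paired analysis was possible because there is 1 group. With 2 libraries an order of genes has no test, and a member with few reads can be missed at this depth.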

Other observations

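Most genes on a list of those whose products keep Hox genes silent or active were detected in the same libraries. Of 31 genes of Polycomb and Trithorax complexes and their histone demethylases, 30 were detected, against 45.7% of all genes in the files. The exception, Phf19, had 150 reads in replicate 1 and 0 in replicate 2. The list median was 72.0 and 73.3 CPM in replicates 1 and 2. Single genes of the list differed between the libraries in either direction. Suz12 was at 137 and 31.1 CPM and Rbbp5 at 21.2 and 60.7 CPM, both chosen after their values were seen. Mll1, a histone H3 lysine methyltransferase gene of the Trithorax group, was at 873 and 825 CPM, and Mll2, a symbol that has been used for more than 1 related gene, was at 808 and 1073 CPM. Jarid2, which encodes an accessory protein of Polycomb repressive complexes, was at 395 and 284 CPM, and the demethylase genes Kdm6b and Kdm6a were at 248 and 188 and at 122 and 220 CPM. No link between these levels and the Hox genes was tested.

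The members that were not detected had a lower median exon length and a higher median GC content than the others. The 13 detected members had a median of 3889 exon bases and a GC content of 49.8%, and the 61 others 2472 bases and 53.5%. The 38 Hox genes, all of them among these others, had a median of 2246.5 bases and 53.8% GC. Over all genes the detected ones had a median of 3501 bases and 50.04% GC, and the others 2116 bases and 48.0%. Length therefore differed in the same direction as over all genes, and GC content in the opposite one. The parts of length, GC content and class in the detection of members were not tested.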
